A study of Mus musculus with 69 samples.

Results

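The bone morphogenetic protein (BMP) set examined here holds 10 genes, chosen by name from the 15924 genes of the 3 deposited expression tables. They are the ligand genes Bmp2, Bmp4 and Bmp7, the 4 inhibitor of DNA binding genes Id1, Id2, Id3 and Id4, the inhibitory Smad genes Smad6 and Smad7, and Bambi, which encodes a decoy receptor. RNA-seq was performed on CJ7, a line of mouse embryonic stem (ES) cells kept on feeder cells with LIF, and on embryoid bodies, the aggregates that form when such cells differentiate in hanging drops. All 10 genes were in all 3 tables, and all passed the filter on low values except Bmp7 in replated cells. The set was chosen with earlier results of these data known, so shares over all genes beside its counts give scale and test no enrichment.

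One experiment compared vehicle (DMSO) with 4 µM GSK343, a small-molecule inhibitor of EZH2, in ES cells (day 0) and in embryoid bodies at day 4 and day 8, with 2 libraries per group. GSK343 or DMSO was present from 3 days before differentiation onwards. Another compared untreated wild-type cells with EZH2-mutant cells at the same 3 stages, with 3 libraries per group; the labels name no allele and do not say whether the mutant cells are 1 clone. In the third, embryoid bodies that had received DMSO or GSK343 were returned to ES cell medium for 5 days, again with DMSO or GSK343, and collected at day 14. These replated groups are named by the treatment before and then after replating, with 3 libraries each, except GSK343 then GSK343, of which 2 were analysed here. The labels do not say that replicate libraries came from separate cultures, so the p-values measure only the spread between these libraries, which may be technical. In addition, CUT&RUN, which maps the DNA bound by an antibody's target, gave peak lists for the Polycomb proteins Ezh2, Suz12 and Ring1B and for the histone mark H3K27me3.

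BMP ligands bind pairs of serine/threonine kinase receptors that phosphorylate SMAD1, SMAD5 and SMAD9, which enter the nucleus with SMAD4. The Id genes are the classic direct targets of these complexes, and the Id proteins bind E proteins and keep them from activating lineage genes. SMAD6, SMAD7 and BAMBI act as feedback inhibitors, with SMAD7 also induced by and acting on TGF-beta and activin signals. In mouse ES cells BMP signals act together with LIF to hold back neural differentiation, and in embryos BMP4 is needed for mesoderm. EZH2 is the main enzyme of Polycomb repressive complex 2 (PRC2), with SUZ12 as another core subunit, and deposits H3K27me3, a mark of repressed genes. RING1B belongs to Polycomb repressive complex 1.

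The promoters of 5 of the genes could be read from RefSeq (GRCm38.p6, the assembly of the mm10 build named for the files). Of these genes, Bmp4, Id2, Id3 and Smad6 were lower with GSK343 than with DMSO at day 8, while the Id4 groups overlapped. Each line gives the 250 bases before the annotated start, 5′ to 3′ on the gene's strand. Capitals mark GGCGCC and GGAGCC, bound by SMAD1 and SMAD5, and GTCTG, the core of the SMAD3 and SMAD4 binding element, on either strand.
Bmp4 promoter, chr14:46390670-46390919, strand minus: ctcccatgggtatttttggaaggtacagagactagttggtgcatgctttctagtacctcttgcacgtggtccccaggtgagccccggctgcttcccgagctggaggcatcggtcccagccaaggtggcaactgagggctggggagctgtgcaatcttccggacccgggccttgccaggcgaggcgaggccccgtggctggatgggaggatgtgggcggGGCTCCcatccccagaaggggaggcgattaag
Id2 promoter, chr12:25096093-25096342, strand minus: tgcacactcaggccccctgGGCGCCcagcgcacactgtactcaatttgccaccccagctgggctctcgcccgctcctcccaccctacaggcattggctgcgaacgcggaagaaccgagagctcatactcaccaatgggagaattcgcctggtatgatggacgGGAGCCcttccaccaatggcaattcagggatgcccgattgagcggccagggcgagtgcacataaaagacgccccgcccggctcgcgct
Id3 promoter, chr4:136143572-136143821, strand plus: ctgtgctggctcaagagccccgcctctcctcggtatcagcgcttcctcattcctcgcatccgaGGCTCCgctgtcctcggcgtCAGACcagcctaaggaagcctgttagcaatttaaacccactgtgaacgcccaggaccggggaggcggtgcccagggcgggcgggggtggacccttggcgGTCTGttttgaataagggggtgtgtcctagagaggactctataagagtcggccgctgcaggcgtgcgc
Id4 promoter, chr13:48260866-48261115, strand plus: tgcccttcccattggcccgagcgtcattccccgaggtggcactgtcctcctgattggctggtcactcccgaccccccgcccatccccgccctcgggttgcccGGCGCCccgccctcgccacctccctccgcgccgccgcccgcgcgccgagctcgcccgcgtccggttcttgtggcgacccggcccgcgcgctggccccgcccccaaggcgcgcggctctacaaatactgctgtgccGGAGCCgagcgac
Smad6 promoter, chr9:64022060-64022309, strand minus: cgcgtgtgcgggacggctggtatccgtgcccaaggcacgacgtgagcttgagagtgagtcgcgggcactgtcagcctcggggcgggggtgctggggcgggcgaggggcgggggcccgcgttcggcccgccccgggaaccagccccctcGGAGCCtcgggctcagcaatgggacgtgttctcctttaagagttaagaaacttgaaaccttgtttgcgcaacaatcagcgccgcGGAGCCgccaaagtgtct
GGAGCC was in all 5 windows and in 26.0% of the 32851 RefSeq promoter windows searched the same way. GGCGCC was in the windows of Id2 and Id4 and in 9.59% of all windows. GTCTG was found 2 times in the Id3 window and in none of the other 4, against 42.2% of all windows, and the palindrome GTCTAGAC was in none of the 5 and in 0.167% of all. The 5 windows had a GC content of 62.8 to 75.6%, and the median of all windows was 52.4%. Id4, whose GSK343 and DMSO groups overlapped at day 8, carried the same motif letters as Id2. Bmp2, Bmp7, Id1, Smad7 and Bambi are named only.

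Recovered depth was 5.01 to 22 M (mega) reads per library in DMSO and GSK343 cultures, 7.17 to 28.5 M in wild-type and mutant cultures and 2.27 to 8.34 M in replated cultures. In replated libraries 65.5 to 90.6% of the counts from 1 to 100 were even, against 48.0 to 51.0% in the other tables, so reads there cannot be taken as independent molecules. Between 4.08 and 57.9% of the reads of a library fell on Rn45s, a ribosomal RNA gene. Levels are given as RPKM, reads per kilobase of gene and mega of reads, and are compared within a table. RPKM by itself allows for depth and gene length, not for library composition such as the Rn45s share. Differences are on the log2(RPKM + 1) scale, which understates the change of genes near 0, and were tested with limma over all genes at a Benjamini-Hochberg adjusted p of 0.05. The samples are bulk, so fewer cells of a type and less RNA per cell cannot be told apart.

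In vehicle-treated cultures the set was low or moderate in ES cells and day 4 embryoid bodies and high at day 8. The ligands went through a trough at day 4. Bmp4 was at 40.2 and 30.1 RPKM in the 2 DMSO ES cell libraries, 1.93 and 2.52 at day 4 and 68.7 and 59.0 at day 8. Bmp7 was at 2.47 and 3.52, then 0.602 and 0.568, then 14.6 and 9.0 RPKM. Bmp2, a ligand used in heart and extraembryonic tissue, was at most 0.174 RPKM in ES cells and at day 4, with 8 to 11 reads per library, and reached 21.9 and 15 RPKM at day 8. Bmp2 rested on few reads before day 8, and its step from ES cells to day 4 did not pass the test (-0.05, SE 0.28, adjusted p 0.909).

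The Id genes were the most abundant of the set at day 8. Id3 stood at 170 and 167 RPKM and Id1 at 157 and 126, followed by Id2 at 77.5 and 73.9, whereas Id4 stayed at 2.86 and 2.75. In ES cells Id1 and Id3 did not differ beyond their spread: Id3 was at 19.3 and 57.4 RPKM and Id1 at 38.4 and 38.9. Id2 differed from them in rising at each step, from 3.65 and 2.91 RPKM in ES cells to 9.88 and 12.2 at day 4. Among the feedback inhibitors Smad6 went from 1.43 and 1.56 RPKM at day 4 to 33.3 and 32.4 at day 8, and Bambi from 3.60 and 4.31 to 34.8 and 37.4. Smad7 was the exception, highest in ES cells (41.4 and 37.3 RPKM) and at 25.3 and 17.0 by day 8.

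**Figure D1:**
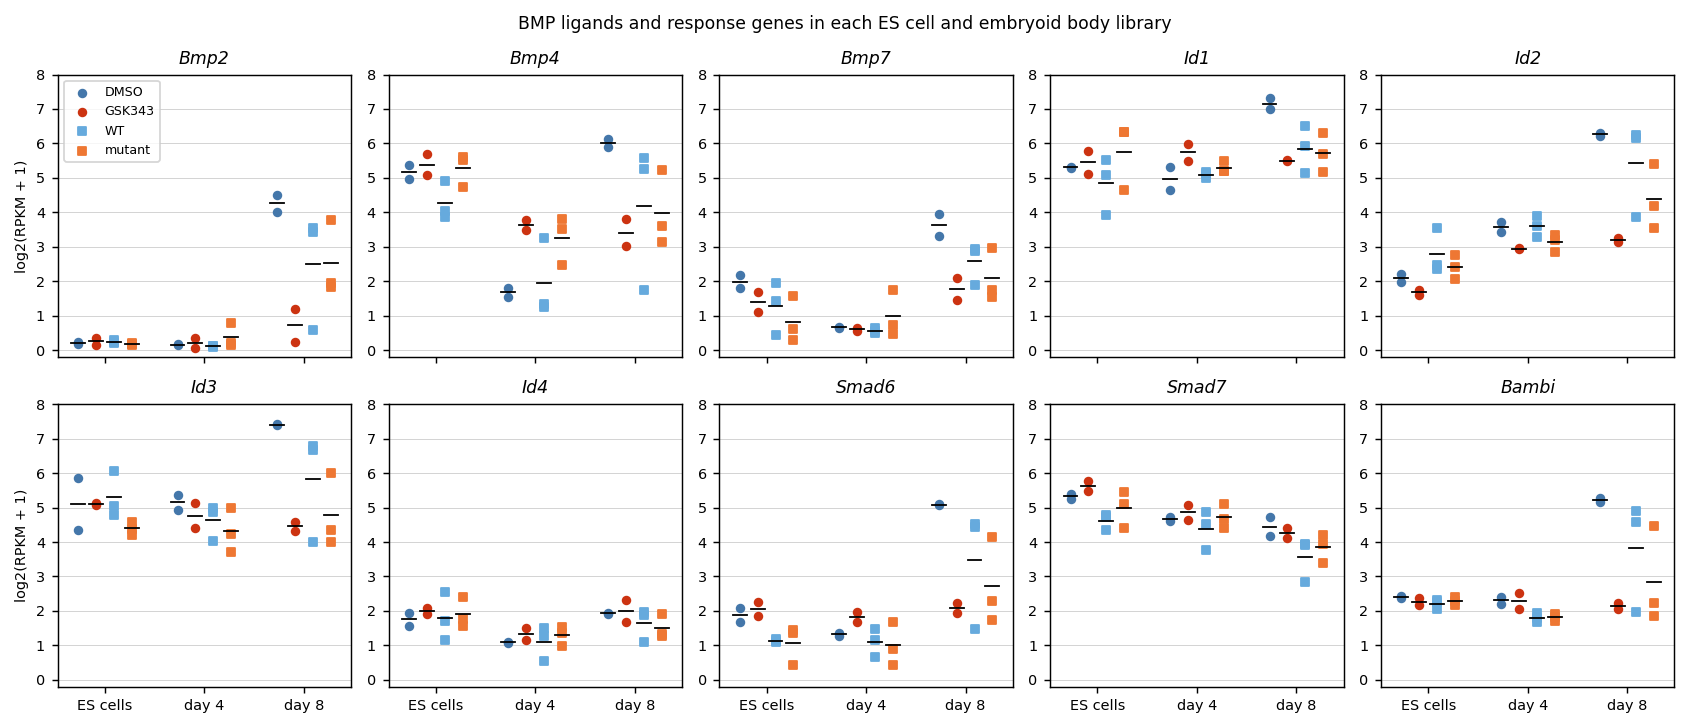
Level of each gene, as log2(RPKM + 1), in every ES cell and embryoid body library: circles are DMSO or GSK343 cultures, squares wild-type or mutant cultures, and black lines are group means of the plotted values. The 2 tables were scaled differently by the authors, so circles and squares should not be set against each other. At day 8 the 8 genes that passed the test lie lower in GSK343 than in DMSO, and Id4 and Smad7 overlap. Wild-type and mutant points spread over the whole range.

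From ES cells to day 4 in DMSO, 5 of the 10 genes passed the test, against 32.8% of all genes. Bmp4 (-3.48 on the log2 scale, SE 0.28, adjusted p 4.14e-05), Bmp7 (-1.32), Id4 (-0.67) and Smad7 (-0.67) fell and Id2 rose (1.49). The Id4, Smad7 and Bmp7 calls were not stable to the choice of libraries: leaving out 1 library at a time left 2 to 4 calls, with 2 left without DMSO ES cell library 2. Smad7 was lost in all 4 of these fits and Id4 in 3 of the 4, including those without either day 4 library. From day 4 to day 8, 9 of the 10 rose, all but Smad7, where 41.4% of all genes passed and 23.3% rose. The largest rises were 4.33 for Bmp4 (SE 0.28, adjusted p 2.43e-06), 4.1 for Bmp2 and 3.76 for Smad6. Id1 rose by 2.17, Id2 by 2.68, Id3 by 2.25, Bambi by 2.91, Bmp7 by 2.98 and Id4 by 0.84. Leaving out any of the 4 libraries left 8 calls and lost Id4 (adjusted p 0.0564 to 0.067).

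Markers of other cell types moved over the same step. The summed level of 9 ES cell markers was 1011 and 1084 RPKM at day 4 and 163 and 130 at day 8. All 8 cardiac muscle markers and all 8 of blood and endothelium rose, as did 10 of 12 endoderm markers. The part of these cells in the rise of the BMP set was not tested.

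In untreated wild-type cultures fewer genes of the set passed than in DMSO, and the difference between these arms, which are in separate tables, was not tested. From ES cells to day 4 no gene of the set passed, against 8.67% of all genes (1 at an unadjusted p under 0.05, Bmp4, at -2.32 with SE 0.84 and adjusted p 0.105; limma with recovered reads, voom, also called 0). Bmp4 was at 29.0, 13.7 and 15.4 RPKM in ES cells and at 1.39, 1.56 and 8.51 at day 4. Wild-type day 4 library 3 thus stood apart in Bmp4, and without it Bmp4 passed (-2.97, adjusted p 0.0439). Library 3 was the deepest, at 28.5 M reads. Of the day 4 libraries then left, library 2 had 7.64 M reads, 57.9% of them on Rn45s. From day 4 to day 8, 5 of 10 rose, against 20.7% of all genes and 10.6% that rose. They were Bmp2 (2.40, SE 0.61, adjusted p 0.0145), Bmp7 (2.02), Id2 (1.83), Smad6 (2.39) and Bambi (2.02). This count depended on the libraries and on the fit. It was 0 without wild-type day 8 library 1 or library 2, 2 without day 4 library 1 or 2, 3 without day 4 library 3 and 7 without day 8 library 3, where Bmp4 (3.47, adjusted p 0.00124) and Id3 (2.09, adjusted p 0.00804) joined. It was 2 with voom and 1 with only these groups fitted. With the replicate number as a block, Smad7 also passed (-0.82, adjusted p 0.00332), for 6 in all. Shares of all genes for these other fits are not given here, so their counts cannot be set against 20.7 or 10.6%.

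At day 8 most of the BMP set was far lower in cultures with the EZH2 inhibitor. Of the 10 genes, 8 were lower in GSK343 than in DMSO embryoid bodies, where 31.6% of all genes passed and 16% were lower. The median difference of the 10 was -2.78 on the log2 scale, against 0.00 over all genes tested. The same 8 were called in every alternative and without any 1 of the 4 libraries.

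All 3 ligands were among them. Bmp4 was at 7.13 and 12.9 RPKM with GSK343 against 68.7 and 59.0 with DMSO (-2.61, SE 0.28, adjusted p 8.34e-05). Bmp2 was at 1.30 and 0.181 RPKM against 21.9 and 15 (-3.54, SE 0.28, adjusted p 1.11e-05). Bmp7 was at 1.72 and 3.26 RPKM against 14.6 and 9.0 (-1.88, SE 0.29, adjusted p 0.000764). The 2 GSK343 libraries differed from each other in Bmp2 by more than the 2 DMSO libraries did on the log scale.

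Of the Id genes, Id2 showed the largest difference, at 7.86 and 8.6 RPKM against 77.5 and 73.9 (-3.06, SE 0.16, adjusted p 7.44e-07). Id3 was at 22.9 and 19 RPKM against 170 and 167 (-2.95, SE 0.41, adjusted p 0.000404). Id1 was the least reduced of the 3 on this scale, at 44.1 and 44.7 RPKM against 157 and 126 (-1.64, SE 0.27, adjusted p 0.00122), a ratio of mean RPKM of 0.313. Id4 was at 2.19 and 3.99 RPKM against 2.86 and 2.75, with overlapping groups (0.07, SE 0.23, adjusted p 0.849).

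Of the feedback inhibitors, Smad6 and Bambi were lower and Smad7 did not pass. Smad6 was at 2.82 and 3.72 RPKM against 33.3 and 32.4 (-3.0, SE 0.21, adjusted p 4.36e-06). Bambi was at 3.65 and 3.15 RPKM against 34.8 and 37.4 (-3.08, SE 0.18, adjusted p 1.57e-06). Smad7 overlapped, at 20.4 and 16.4 RPKM against 25.3 and 17.0 (-0.17, SE 0.21, adjusted p 0.573). The 2 genes that did not pass, Id4 and Smad7, were also the ones with the smallest day 4 to day 8 change in DMSO. Both comparisons use the same DMSO day 8 libraries, so this is not a separate observation.

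**Figure D2:**
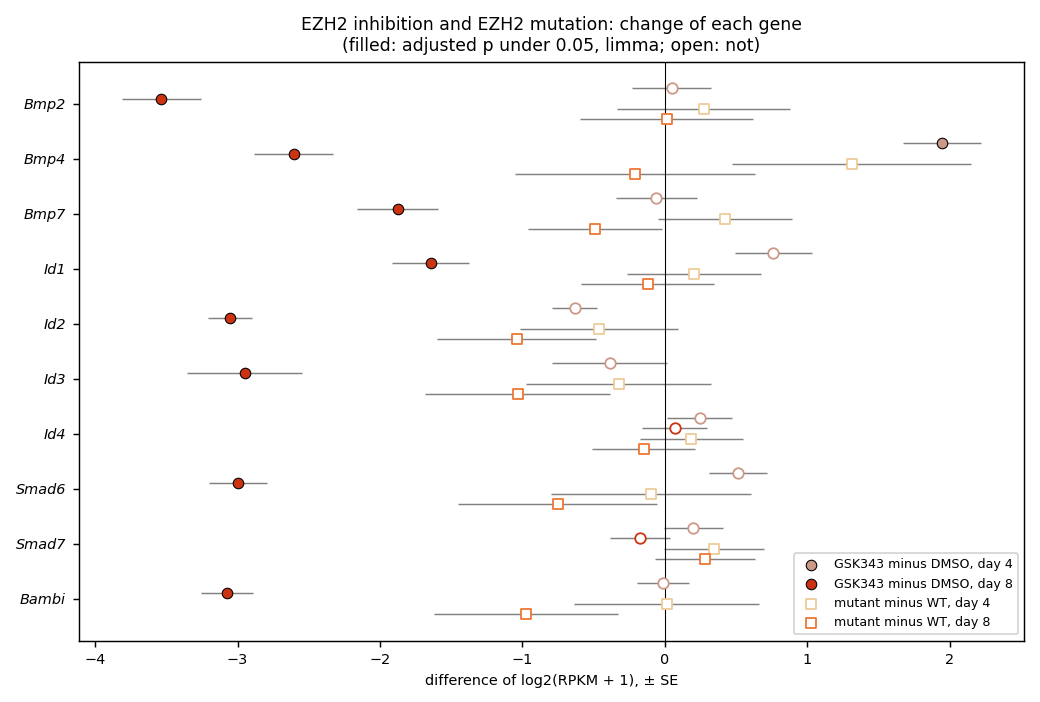
Difference of log2(RPKM + 1) with its standard error for each gene: circles are GSK343 minus DMSO and squares mutant minus wild type, in pale colour at day 4 and dark at day 8. Filled points passed an adjusted p of 0.05. The 8 filled points at the left are the day 8 GSK343 differences, from -3.54 for Bmp2 to -1.64 for Id1, and the only filled point at the right is Bmp4 at day 4.

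At day 4 Bmp4 was the only gene of the set that passed, at 10.3 and 12.6 RPKM with GSK343 against 1.93 and 2.52 with DMSO (1.95, SE 0.28, adjusted p 0.0177), in a comparison where 0.628% of all genes passed. It was lost without any 1 of the 4 libraries (adjusted p 0.112 to 0.151), though the difference stayed between 1.81 and 2.08. Id1 was at 44.0 and 62.8 RPKM against 23.9 and 39.0 (0.76, SE 0.27, adjusted p 0.309). Smad6 was at 2.23 and 2.93 RPKM against 1.43 and 1.56 (0.51, SE 0.21, adjusted p 0.392), and Id2 at 6.88 and 6.60 against 9.88 and 12.2 (-0.63, SE 0.16, adjusted p 0.116). So none of the Id or inhibitor genes passed beside Bmp4, and Id1 and Smad6 lay on the other side of 0 from Id2. Of the 9 ES cell markers 5 rose at day 4, with a summed level of 1494 and 1639 RPKM under GSK343 against 1011 and 1084, and their part in the Bmp4 difference was not tested.

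In ES cells no gene of the set passed, as none of all 14016 genes did (0% called). At an unadjusted p under 0.05 there was 1, Id2 (-0.41, SE 0.16, adjusted p 0.89), and voom called 0. Bmp4 stood at 50.3 and 33.1 RPKM with GSK343 against 40.2 and 30.1 without, and Id1 at 54.4 and 33.8 against 38.4 and 38.9.

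The effects at day 8 and day 4 differed for the same 8 genes when the difference between them was tested (12.2% of all genes passed and 6.51% were lower). Bmp4 showed the largest, at -4.55 (SE 0.39, adjusted p 7.03e-05), since its day 4 and day 8 effects had opposite signs. With voom 7 passed, Bmp7 being lost (adjusted p 0.0848). Leaving out single libraries left 6 to 8, the lost genes being Bmp7 or Id3, with adjusted p up to 0.0678.

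GSK343 cultures also carried more ES cell marker RNA and less of most differentiated markers at day 8. The 9 ES cell markers summed to 1393 and 1903 RPKM against 163 and 130 in DMSO, and 8 of the 9 were higher. Pou5f1, the gene of the pluripotency factor OCT4, was at 421 and 465 RPKM against 60.9 and 54.5. Lower were 10 of 15 mesenchyme and feeder markers, 9 of 12 endoderm, 7 of 8 cardiac, 7 of 8 blood and endothelium and 5 of 6 trophoblast markers. Neural markers went the other way, with 3 of 5 higher and none lower, and of 7 primitive streak and mesoderm markers 1 was higher and 2 lower. The part of these cells in the lower BMP set was not tested.

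Compared with wild type, the EZH2 mutant showed no gene of the set past the threshold at any stage. The backgrounds were 0.0917% of all genes in ES cells, 0.0494% at day 4 and 1.51% at day 8. Nor did any of the 10 reach an unadjusted p under 0.05 at any stage, and voom called 0. Bmp4 at day 4 lay in the same direction as with GSK343, at 4.54, 10.4 and 13.1 RPKM in the mutant against 1.39, 1.56 and 8.51, but the groups overlapped (1.31, SE 0.84, adjusted p 1). The error was wider than in the GSK343 comparison, with an SE of 0.84 against 0.28, and a missed threshold does not show that the mutant and wild type act alike. The test of the day 8 effect against the day 4 effect called 0 of the 10, as they called none of all genes (0% called).

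At day 8 the 6 wild-type and mutant libraries did not sort by genotype. Bmp4 was at 47.1, 37.4 and 2.36 RPKM in wild type and at 36.8, 11.1 and 7.82 in the mutant. Id3 was at 109, 100 and 15.1 RPKM in wild type and at 63.4, 19.3 and 14.9 in the mutant. Smad6 was at 22.1, 20.8 and 1.77 against 16.7, 3.87 and 2.37 RPKM. In 8 of the 10 genes, all but Id4 and Smad7, the 3 highest libraries were wild-type libraries 1 and 2 and mutant library 1. Wild-type library 3 was the lowest of the 6 for Bmp2 (0.491 RPKM), Bmp4, Id1 (34), Smad6 and Smad7 (6.16).

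The same libraries differed in cell type markers. The ES cell marker sum was 63.1, 64.8 and 691 RPKM in wild-type libraries 1 to 3 and 536, 1581 and 1167 in the mutant ones. Cardiac marker sums were 235, 185 and 14.3 RPKM, and 174, 23.9 and 18.1. Endoderm marker sums were 138, 157 and 19.1 RPKM in wild type and 293, 84.3 and 437 in the mutant, and 5 of 12 endoderm markers were higher in the mutant by the test. The part of these cells was not tested. Mutant library 1 had high BMP genes. Its ES cell marker sum was closer to that of wild-type library 3 and its cardiac sum to those of wild-type libraries 1 and 2. Its endoderm sum was above those of all wild-type libraries. With wild-type day 8 library 3 left out, 3 of the 10 were lower in the mutant, where 9.22% of all genes then passed. These were Id2 (-1.83, adjusted p 0.0198), Id3 (-1.94, adjusted p 0.0328) and Bambi (-1.90, adjusted p 0.0312). In the full comparison they stood at -1.04 (SE 0.56), -1.03 (SE 0.65) and -0.97 (SE 0.65).

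**Figure D3:**
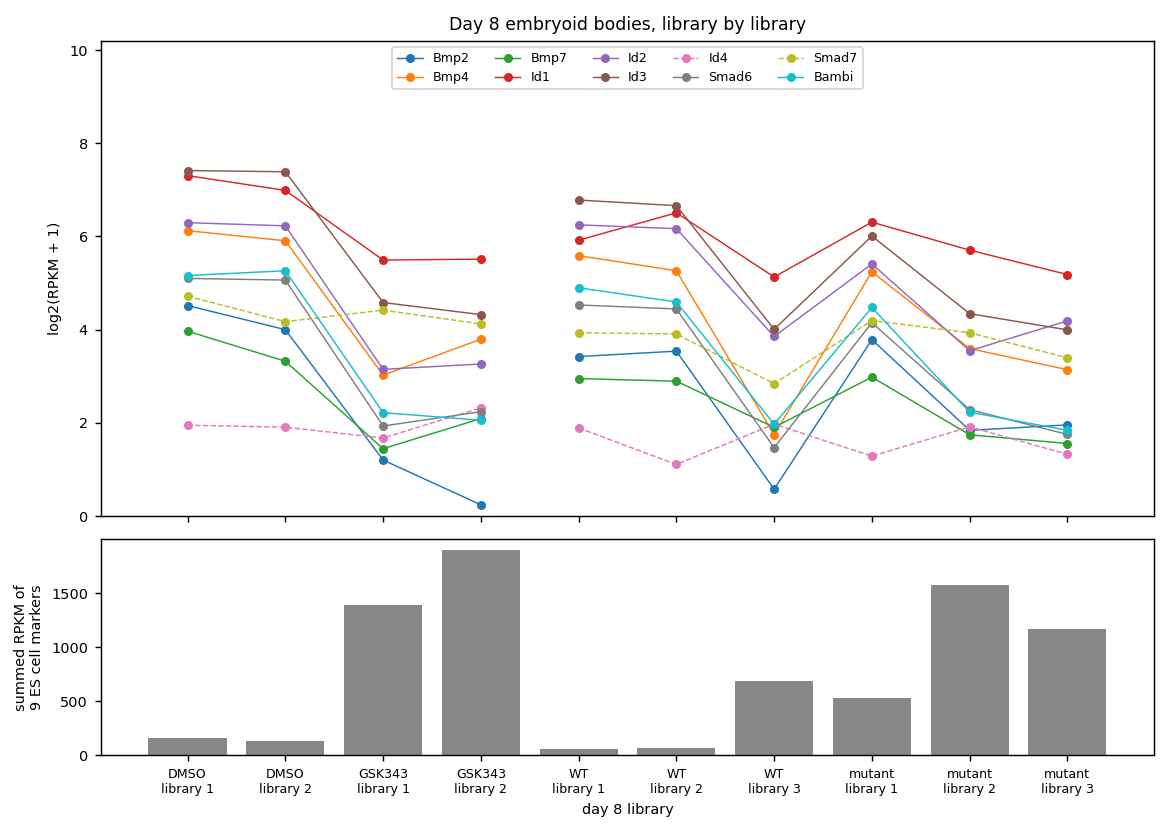
Day 8 embryoid bodies library by library: above, log2(RPKM + 1) of each gene, with lines that only follow a gene within a table and are dashed for Id4 and Smad7, and below, the summed RPKM of 9 ES cell markers as bars. Both GSK343 libraries, wild-type library 3 and mutant libraries 2 and 3 show low BMP genes. Mutant library 1 is high, and its marker bar stands at 536 RPKM.

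In replated cells the Id genes stayed abundant and the ligands apart from Bmp4 were near 0. Id1 ranged from 22.9 to 234 RPKM over the 11 libraries and Id3 from 21.0 to 290, while Bmp2 was at most 1.01 RPKM and Bmp7 at most 0.864, from 0 to 18 reads per library. Feeder and mesenchyme markers summed to 1059 to 8414 RPKM here, against 34.9 to 348 in the DMSO and GSK343 table's day 4 and day 8 libraries, a level set across tables that were scaled separately. The labels do not say whether feeder cells were present after replating, and their part was not tested.

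None of the 9 genes tested passed in any replated comparison, and no gene of the 14367 tested did (0% called in each). At an unadjusted p under 0.05 there were 1 for GSK343 after replating of DMSO cultures, 2 for early GSK343 followed by DMSO and 3 for early GSK343 in cells replated in GSK343, none in the other comparisons, and voom called 0 in each. GSK343 given only after replating left Bmp4 at 8.81, 5.01 and 7.97 RPKM against 25.2, 11.3 and 12 in DMSO then DMSO (-1.0, SE 0.43, adjusted p 0.885). The median of all genes moved by -0.23 in that comparison, and by -0.04 with median-ratio scaling. Id1 was at 188, 144 and 209 RPKM against 140, 65.9 and 234, and Id3 at 230, 158 and 213 against 113, 60.5 and 290, so both overlapped. DMSO then DMSO library 1 stood apart in markers, with an ES cell sum of 728 RPKM against 83.2 and 119.

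Cells that had received GSK343 before replating into DMSO had Bmp2 at 1.01, 0.890 and 0.843 RPKM against 0, 0.202 and 0.222, from 10 to 18 reads against 0 to 6 (0.75, SE 0.24, adjusted p 0.169). In the authors' deposited table the same comparison gives Bmp2 a log2 difference of 2.07 with an adjusted p of 0.0274, where 7.49% of all genes pass. Id2 was at 7.66, 6.98 and 13.9 RPKM against 13.2, 27 and 30.2, with a slight overlap (-1.20, SE 0.52, adjusted p 0.194). In cells replated in GSK343, early GSK343 went with Bmp4 at 15.7 and 33.2 RPKM against 8.81, 5.01 and 7.97 (1.56, SE 0.48, adjusted p 0.145). For that comparison the authors' deposited table calls none of the 10, against 9.14% of all genes. Without GSK343 then GSK343 library 1, the differences in the fit here were 2.08 for Bmp4 and -2.35 for Id2, with 1 library left in that group. ES cell markers summed to 608 to 1186 RPKM in the 5 libraries with early GSK343 and to 64.8 to 728 in the other 6, and their part was not tested.

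**Figure D4:**
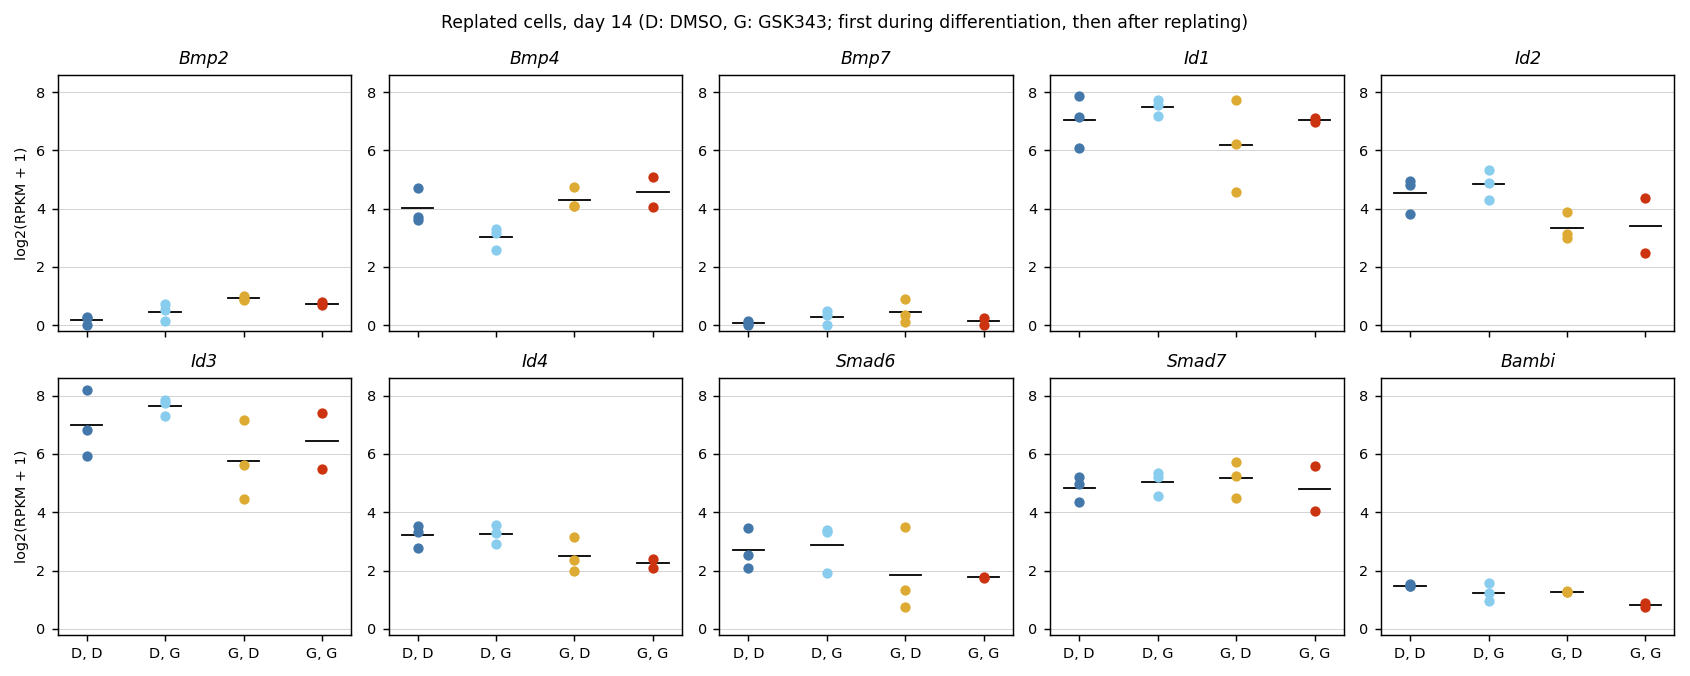
Level of each gene, as log2(RPKM + 1), in each replated library at day 14, with group means as black lines; the first letter is the treatment before and the second after replating. Points of Id1 and Id3 spread widely within groups, and Bmp2 and Bmp7 stay low in all groups.

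The pathway lists held 79 further genes. In DMSO from day 4 to day 8, 35 of 65 tested rose and 4 fell, where 41.4% of all genes passed and 23.3% rose, with a median difference of 0.75 against 0.05 over all genes. Among genes reported as BMP targets 16 of 19 rose and none fell. The smallest p-values belonged to the ligand gene Bmp5 (4.63, SE 0.12), the transcription factor genes Hand1 (5.74, SE 0.20) and Msx2 (4.95, SE 0.19), and Gdf3, a ligand of pluripotent cells, which fell (-2.99, SE 0.15). In wild type over the same step, 16 of 64 rose and 1 fell, where 20.7% of all genes passed and 10.6% rose. The smallest p-values were those of the antagonist Nog (2.41, SE 0.45), Hey1 (0.99, SE 0.23), Msx2 (3.24, SE 0.79) and the co-receptor gene Rgma (1.16, SE 0.29).

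With GSK343 at day 8, 28 of the 65 were lower and 4 higher, where 31.6% of all genes passed and 16% were lower, with a median of -0.55 against 0.00 over all genes. Bmp5 was at 0.128 RPKM with GSK343 against 24.6 with DMSO (-4.51, SE 0.12, adjusted p 1.49e-08). Hand1 was at 0.905 against 59.2 RPKM (-4.98, SE 0.20) and Msx2 at 0.894 against 37.3 (-4.35, SE 0.19), while Gdf3 was higher, at 35.4 against 1.52 (3.83, SE 0.15). By role, 11 of 19 targets were lower and none higher. The other roles hold few genes to read against the 16% of all genes that were lower: of receptors and co-receptors 3 of 10 were lower and 2 higher, of secreted antagonists 5 of 13 were lower, and of Smad1, Smad5, Smad9 and Smad4, 3 of 4 were lower. Hand1, Cdx2 and Nkx2-5 of the target list are also on the trophoblast or cardiac marker lists. At day 4 Gdf3 was higher (0.96, SE 0.15) and the receptor gene Bmpr1b lower (-0.69, SE 0.11), and no other listed gene passed. In the mutant comparisons none of the 64 passed at any stage, the smallest adjusted p being 0.0646.

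The mark H3K27me3 lay at nearly all of these genes in a merged wild-type list, which does not say at which stage a peak was present. A deposited H3K27me3 peak, from the list merged over the wild-type stages, was within 1 kb of 9 of the 10 genes, all but Smad7, whose nearest was 25154 bases away. The share among 15644 genes with a RefSeq span was 32.7%. The authors' PRC2 target call was YES for 9 of the 10, against 32.2% of the 14833 genes in the deposited table that carries it. Whether that call rests on the same peaks was not checked. Peaks were often longer than the gene. Id1 (chr2:152736251-152737410) lay inside a peak of 8462 bases and Id3 (chr4:136143822-136145392) inside one of 20852. Bmp4 (chr14:46383525-46390669) lay inside one of 25914 bases, and Id2 (chr12:25093799-25096092) inside one of 13194. Bmp2 (chr2:133552159-133562896) and Bmp7 (chr2:172868012-172940321) were overlapped in part, as was Smad6 (chr9:63953076-64022085), and Id4 (chr13:48261116-48266028) lay wholly inside a peak of 12231 bases. Of the 5 promoter windows shown above, the start site lay inside the peak for Bmp4, Id2, Id3 and Id4 and 36 bases outside it for Smad6.

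Id4 had the mark and did not pass at day 8 with GSK343, and Smad7 did not have it and did not pass. The 8 genes with lower levels under the inhibitor all had the mark. Since 9 of the 10 genes had it, this was nearly fixed in advance and shows no link. The share with the mark among all genes lower at day 8 was not computed. No list of H3K27me3 from GSK343-treated or mutant cells was used here.

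Polycomb protein peaks were fewer. Merged wild-type Suz12 peaks were within 1 kb of Bmp7, Id2 and Smad6 (2.9% of all genes), Ring1B peaks of Bmp7, Id3 and Smad6 (5.08%) and Ezh2 peaks of none (2.1%). The count varied between single Suz12 lists, also within a genotype and stage. It was 7 in wild-type day 8 library 2 (22.3% of all genes), with Bmp2, Bmp4, Bmp7, Id1, Id2, Id3 and Smad6, and 6 in mutant day 8 library 2 (20.5%), with the same genes except Id3. It was 0 in mutant day 8 library 1 (8.96%) and 0 in the wild-type ES cell (11.1%) and day 4 (3.08%) lists. Mutant ES cell lists had 3 (14.2%) and 1 (11.8%), and the mutant day 4 lists 1 each (15.2 and 20.2%), Smad7 in one and Smad6 in the other.

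**Figure D5:**
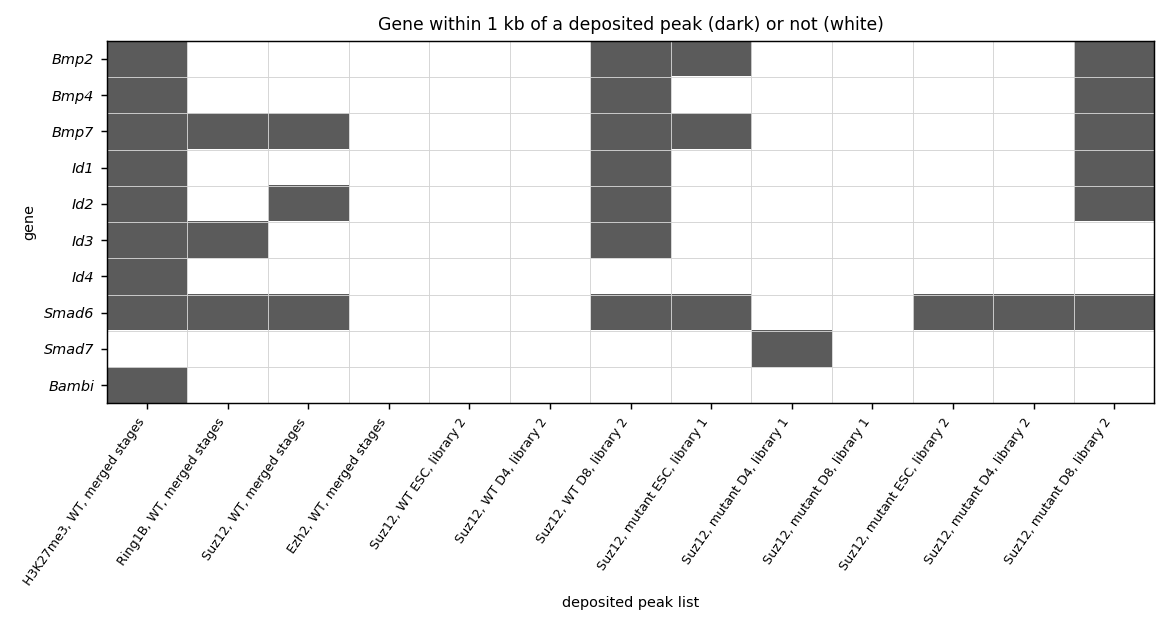
Genes (rows) within 1 kb of a peak of each deposited list (columns) in dark, others in white. The H3K27me3 column is dark for all genes but Smad7, the day 8 library 2 columns of both genotypes for 7 and 6 genes, and mutant day 8 library 1 for none.

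The authors' deposited table holds their own comparisons over time in each arm, which describe the inhibitor-treated and mutant cultures separately. From day 4 to day 8 it calls 9 of the 10 higher in DMSO (38.5% of all genes called) and 2 in GSK343 (8.3%), Bmp2 by 1.70 and Bmp7 by 2.06 on the log2 scale. For Id1, Id2 and Id3 with GSK343 the deposited differences are -0.27, 0.29 and -0.37, none of them called. The authors' deposited table calls 7 higher in wild type (17.1%) and 5 in the mutant (11.5%), these being Bmp2 (3.83), Bmp7 (1.63), Id2 (1.55), Smad6 (2.65) and Bambi (1.82). From ES cells to day 4 the authors' deposited table calls 6 of the 10 in DMSO (32.9% of all genes), 4 in GSK343 (23.5%), 2 in wild type (13.2%) and 1 in the mutant (12.5%). There the authors' deposited table gives Bmp4 a log2 difference of -3.92 in DMSO, -1.86 in GSK343, -2.31 in wild type and -2.06 in the mutant, all called. Differences between these arms are not tested in that table.

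Genes whose pattern over the libraries was most like that of Id1 and Bmp4 were ranked by the mean absolute difference of centred log2(RPKM + 1). Over the 12 DMSO and GSK343 libraries the nearest to Id1 were Plac1 (0.21), Hoxd9 (0.21) and Gfra2 (0.22), and the nearest to Bmp4 were Slc38a4 (0.52), Hbegf (0.55) and Vim (0.55). Over the 18 wild-type and mutant libraries they were Itga9 (0.29), Clmp (0.30) and Camk2a (0.30) for Id1, and Mmrn2 (0.59), Nid1 (0.63) and Nos3 (0.63) for Bmp4. No gene was among the 3 nearest in both tables. The libraries of a table share their stages and their cell type mixture, so likeness here is a description.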

How the data were processed

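RNA-seq of 41 libraries in 16 groups was read from 3 tables, with groups taken from the labels and column names; 1 labelled library of GSK343 then GSK343 has no values here. The values are RPKM made by the authors, per the file headers; the aligner STAR 2.5.3, the counter featureCounts 1.6.1, edgeR, HOMER 4.10.3 and build mm10 are named for RNA-seq and Bowtie2 2.3.4.3 with HOMER 4.10.3 for CUT&RUN, per the submitters' processing notes. Strand use in counting is not given in the sources used, so reads of overlapping or antisense genes cannot be told apart. The wild-type and mutant table carries a further scaling per library by the authors (0.811 to 2.23 times). RPKM times gene length gave whole reads (within 0.02) for 100% of the values under 1000 reads, for all but 138 genes of that table, which have no length in the deposited tables.

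Differences were fitted with limma 3.58.1 in R 4.3.3 (lmFit, contrasts.fit, eBayes with trend) on log2(RPKM + 1), a pseudocount of 1, for genes with RPKM of at least 0.5 in a number of libraries equal to the smallest group size. All groups of a table entered 1 fit, and p-values were adjusted over all genes with Benjamini-Hochberg. The script was tested on simulated data. The authors' deposited log2 fold changes and adjusted p-values, per the file headers, were only copied. The deposited peak coordinates and the deposited PRC2 call (a yes or no in another column, with no unit) were used as given, and gene spans and promoters came from RefSeq GRCm38.p6. Peak lists were merged over stages or are of single libraries, per the file names and labels.

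The members and lists were chosen with earlier results of these data known. Named pathway genes are the up to 4 with the smallest p per comparison. Alternatives were voom on recovered reads, a pseudocount of 0.1, no filter, median-ratio scaling, only the groups compared, a replicate block and leaving out each library; scaling to total reads was added after seeing the data. Pairing was checked by the correlation of deviations from group means between same-numbered libraries. Every pair was over 0.1 for wild-type ES cells to day 4, wild-type day 4 to day 8 and mutant against wild type at day 4. This did not hold in the other comparisons with 3 pairs. In each of the comparisons named, however, a library correlated more with one of another number. The values were 0.15 against 0.18 for wild-type ES cell library 2 with day 4. They were 0.22 against 0.34 for wild-type day 4 library 1 with day 8, and 0.29 against 0.48 for wild-type day 4 library 2 with the mutant. The numbers thus do not show that libraries were paired. Comparisons with 2 pairs were not taken as paired, although in the DMSO and GSK343 table all 30 same-number correlations were over 0.1 (0.18 to 0.67). With 2 libraries per group, the 2 values for a pair of groups are equal by construction, so the 30 are not independent. The main fits hold no replicate effect, which entered only in the replicate block.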

Additional observations from a re-analysis of the deposited data

Results flagged for a closer look

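The difference between the GSK343 effects at day 8 and day 4, tested as an interaction in limma with Benjamini-Hochberg adjustment over all genes, passed for 8 genes, each with 2 libraries per group. It was -3.59 for Bmp2 (adjusted p 0.00033), -4.55 for Bmp4 (7.03e-05), -1.82 for Bmp7 (0.0159), -2.41 for Id1 (0.00312), -2.42 for Id2 (9.93e-05), -2.56 for Id3 (0.0164), -3.51 for Smad6 (5.63e-05) and -3.06 for Bambi (5.81e-05) on the log2 scale. Only Bmp4 had effects past the threshold at both days, higher at day 4 and lower at day 8. The ES cell marker sum also differed between the arms at both days, and its part was not tested.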

How the results depend on the processing

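No called difference of a gene of the set changed sign in any alternative. For 36 calls, 212 of 221 fits with another setting kept the call and 9 lost it, as did 43 of 186 fits without 1 library. The count of called genes kept within 1.5 times in all settings other than leaving out a library, except for wild type from day 4 to day 8, with 5 in the main analysis, 2 with voom on recovered reads and 1 with only the groups compared; the cause was not tested. Leaving out each library in turn gave 0 genes each time for GSK343 against DMSO at day 4 (1 in the main analysis), 2 to 4 for DMSO from ES cells to day 4, 0 to 7 for wild type from day 4 to day 8, 0 to 3 for mutant against wild type at day 8, 0 to 1 for wild type from ES cells to day 4 and 0 to 2 for GSK343 then GSK343 against DMSO then GSK343. Where this left 1 library in a group, it was assumed to vary like the others. The share of all genes that passed also varies between fits and is mostly not given, so these counts describe stability only. For GSK343 against DMSO at day 8, the uncalled Smad7 ranged from -0.45 to 0.10 and the uncalled Id4 from -0.25 to 0.39 when 1 library was left out, so both changed sign. The replicate block gave 6 genes for wild type from day 4 to day 8 and 6 for DMSO from ES cells to day 4, and changed no other count; Smad6 joined in the latter (-0.57, adjusted p 0.0406). Within 1 kb, single Suz12 lists held 0, 1, 3, 6 or 7 genes of the set where the merged list held 3. Replated libraries were the shallowest, from 2.27 M reads, and Bmp2 and Bmp7 rest on few reads there.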
